A study of Komagataella phaffii with 15 samples.

Results

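Of the 5341 *K. phaffii* genes in the tables, 92 had at least 2-fold less transcript in the *flo8Δ* strain than in the wild-type strain at the slow growth rate (S3) and differed by less than 2-fold between the strains at the fast growth rate (S1). They were chosen from the mean normalized counts of the deposited tables: a wild-type S3 mean of at least 10, a log2 ratio of *flo8Δ* over wild type (with 1 added to each mean) at or below -1 at S3, and a ratio between -1 and 1 at S1. *FLO300* (PP7435_Chr4-1020) and *FLO100* (PP7435_Chr1-1587) were left out by name, and *FLO100* would otherwise have qualified. The minimum was passed by 5311 genes, and apart from those left out 202 of them were at least 2-fold lower in the *flo8Δ* strain at S3, of which the 110 that were not retained were at least 2-fold lower at S1 too.

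RNA-Seq was made from glucose-limited chemostat cultures of CBS7435, a laboratory wild-type strain, and of a *flo8Δ* strain derived from it, as 5 samples, each in biological triplicate (3 libraries). The *flo8Δ* strain was sampled at the fast dilution rate, 0.1 h-1 (S1), and at the slow one, 0.05 h-1 (S3), and was not sampled after a return to the fast rate. The wild-type strain was sampled at 0.1 h-1 (S1), at 0.05 h-1 (S3) and again at 0.1 h-1 after the slow phase (S5). As the methods describe it, the *FLO8* disruption removes part of the promoter and the start of the coding sequence, the *flo8Δ* strain is a single engineered strain, and each chemostat was carried from S1 onward, which means that the sampling points of a strain may share cultures.

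Flo8 is a transcription factor which in *S. cerevisiae* activates flocculin genes such as *FLO11* and is needed for pseudohyphal and invasive growth. Flocculins are cell wall glycoproteins through which yeast cells adhere to each other and to surfaces. In *S. cerevisiae*, nutrient and growth signals reach the same flocculin promoters through cAMP-dependent protein kinase and mitogen-activated protein kinase signalling, together with repressors and other activators. The identifiers of the tables match none of the entries of the RefSeq gene table, so the members are given by identifier and no function is assigned to them. None of 11 *FLO* family genes matched to a row by identifier is a member, the 2 left out by name among them. *FLO5-1* and *FLO5-2* are not counted, since which row belongs to which of them could not be settled.

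The disrupted gene itself was checked first. *FLO8* (PP7435_Chr4-0252) had 24.1, 28.5 and 31.9 TPM (transcript abundance scaled for length and depth) in *flo8Δ* S1 and 34.8, 29.6 and 33.4 TPM in *flo8Δ* S3, against 36.7, 32.8 and 39.2 TPM in wild-type S1 and 33.2, 34.4 and 33.5 TPM in wild-type S3. The *flo8Δ* libraries lay below the wild-type ones at S1 and overlapped with them at S3, and the reads on this gene do not by themselves tell the strains apart. Per the methods only the start of the coding sequence is removed, and where the reads fall on the gene was not examined. *FLO11* (PP7435_Chr2-0267), not a member, did differ. Its mean TPM was 0.44 in *flo8Δ* S1 and 0.29 in *flo8Δ* S3, against 6.54 in wild-type S1 and 58.8 in wild-type S3.

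Depth was between 4163342 and 10843287 reads per library, recovered from the normalized counts. Wild-type S1 replicate 3, with 4632193 reads, stood apart for the members: 5 of 92 lay above the mean of their sample in it, against 74 in replicate 1 and 81 in replicate 2, and their median deviation was -0.33 on the log2 scale of TPM. The median coefficient of variation of the members was 20.4% in wild-type S1, against 9.91% for all genes passing the minimum, and 4.796% in wild-type S3, against 5.04% for all genes. In the library with the fewest reads, *flo8Δ* S1 replicate 2 with 4163342, 54 of 92 members lay above the mean of their sample. Their median deviation there was 0.01. The part of depth or of the culture in the spread of wild-type S1 replicate 3 was not tested. Without this replicate the same rule takes 72 genes, which include 71 of the 92. Leaving out replicate 2 of that sample instead gives 110 genes, with all 92 included.

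At S3 the log2 ratio of *flo8Δ* over wild type had a median of -1.26 over the members and ran from -2.45 to -1.003, while over all genes passing the minimum its median was 0.00. These ratios chose the members and are given without a test. The difference was moderate in most: 44 members lay between -1.25 and -1, 20 at or below -1.5 and 4 at or below -2. In 92 of 92 members every *flo8Δ* S3 library lay below every wild-type S3 library, as did 30.6% of all genes. With limma, 91 were called lower in the *flo8Δ* strain (more than 2-fold, at a Benjamini-Hochberg adjusted p below 0.05) and 0 higher, against 3.8% and 0.414% of all genes tested, and nothing is read from these counts because the rule fixed them.

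PP7435_Chr4-0002 had the largest ratio. Its 3 *flo8Δ* S3 libraries held 154, 151 and 153 TPM and the wild-type S3 libraries 823, 803 and 784 TPM. At S1 it had 131, 125 and 113 TPM in the *flo8Δ* strain and 278, 301 and 167 TPM in the wild-type strain. The *flo8Δ* libraries of both growth rates thus lay in a narrow band under all wild-type libraries, and wild-type S3 stood far above the rest. PP7435_Chr1-1550, the next largest, had 35.1, 34.7 and 34.3 TPM in *flo8Δ* S3, against 107, 168 and 210 TPM in wild-type S3. Its wild-type S3 libraries spread widely and its *flo8Δ* S3 libraries did not, yet the strains stayed apart. At S1 the strains overlapped, with 32.6, 37.5 and 33.2 TPM in the *flo8Δ* strain and 72.3, 53.9 and 31.1 TPM in the wild-type strain.

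Other members with a large ratio were expressed at lower or similar levels. PP7435_Chr3-0304 had 7.75, 5.39 and 6.72 TPM in *flo8Δ* S3 and 21.4, 33.6 and 25.5 TPM in wild-type S3. PP7435_Chr1-3369, a short transcript of 225 bases, had 4.18, 8.24 and 6.39 TPM in *flo8Δ* S3 and 21.3, 33.5 and 33.2 TPM in wild-type S3, from 9, 18 and 14 reads against 44, 68 and 64 reads. Its values therefore carry a large counting error. The stranded estimates described further on equalled 82.4% of its wild-type S3 reads. With these taken out, 5, 12 and 11 reads were left in *flo8Δ* S3 and 13, 6 and 12 in wild-type S3, and the log2 ratio was -0.30 at S3 and 0.73 at S1. PP7435_Chr1-1166 was measured far more tightly, with 77.9, 68.9 and 73.3 TPM in *flo8Δ* S3 and 231, 233 and 232 TPM in wild-type S3. PP7435_Chr4-1213 had 91.9, 95.6 and 92.9 TPM in *flo8Δ* S3 and 291, 302 and 319 TPM in wild-type S3. The remaining 4 of the 10 largest, PP7435_Chr1-0860, PP7435_Chr3-0663, PP7435_Chr3-0167 and PP7435_Chr1-0014, had ratios between -1.85 and -1.74.

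**Figure D1:**
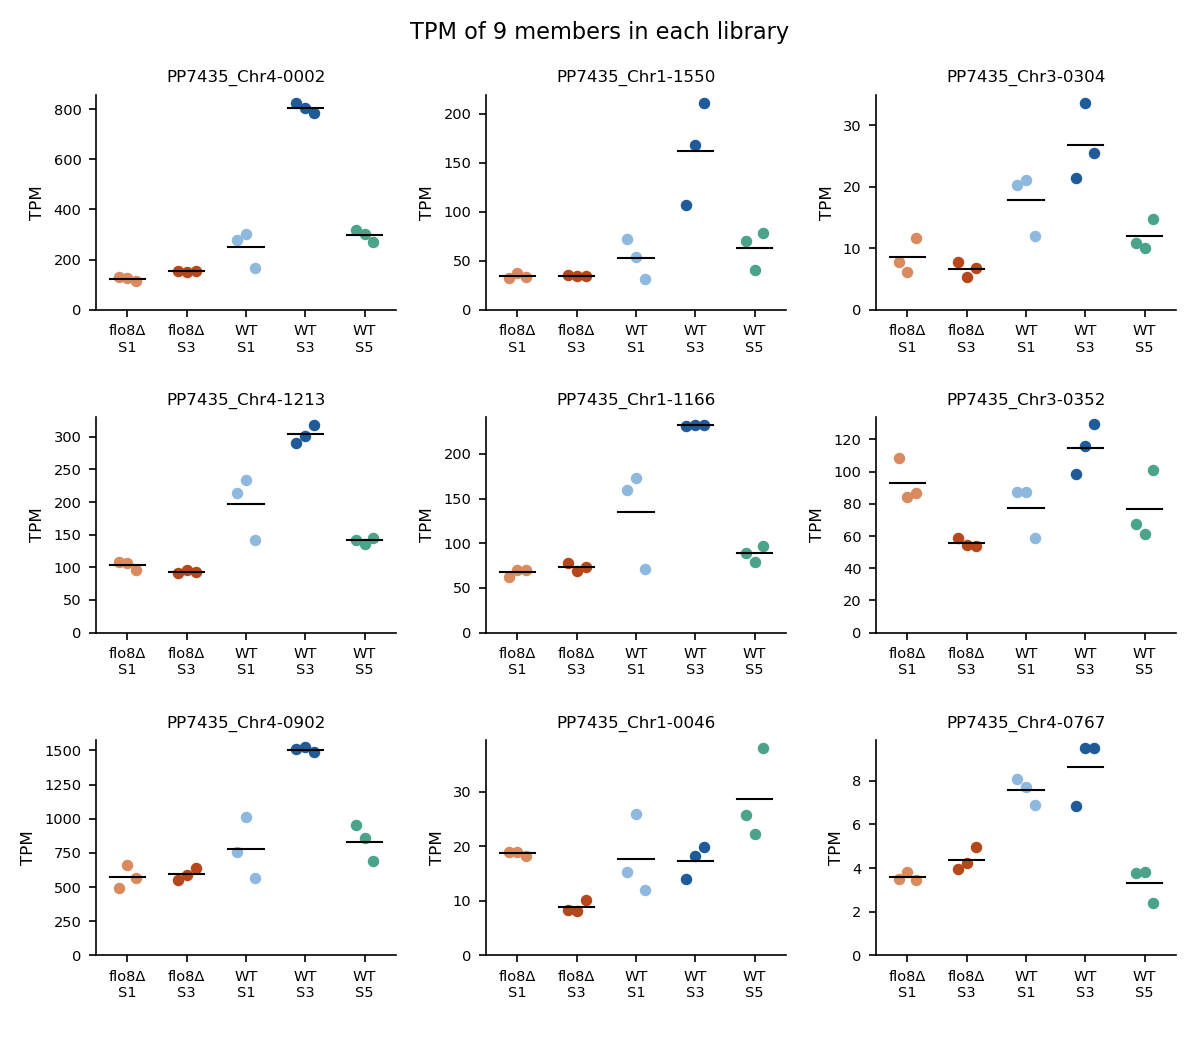
TPM (linear axis from 0) of 9 members in the 15 libraries, in *flo8Δ* S1 and S3 (orange) and in wild-type S1, S3 (blue) and S5 (green). Each point is a library and each bar the mean of 3. PP7435_Chr4-0002, PP7435_Chr4-1213, PP7435_Chr1-1166 and PP7435_Chr4-0902 peaked in wild-type S3, while PP7435_Chr1-0046 was highest in wild-type S5 and PP7435_Chr4-0767 lowest there.

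Of the 10 most abundant members in wild-type S3, 4 were also among the 10 with the largest ratio: PP7435_Chr4-0002, PP7435_Chr3-0663, PP7435_Chr1-0014 and PP7435_Chr1-0860. The 2 most abundant were not. PP7435_Chr2-0501 had 598, 680 and 698 TPM in *flo8Δ* S3 and 1409, 1495 and 1613 TPM in wild-type S3. PP7435_Chr4-0902 had 551, 586 and 641 TPM in *flo8Δ* S3 and 1509, 1522 and 1485 TPM in wild-type S3. The pair differed in their response to growth rate. PP7435_Chr2-0501 was already at 1650, 1687 and 1720 TPM in wild-type S1, and PP7435_Chr4-0902 at 755, 1012 and 564 TPM. PP7435_Chr2-0753, PP7435_Chr1-0609, PP7435_Chr3-0802 and PP7435_Chr3-0324 made up the rest of the 10, each with wild-type S3 libraries of at least 372 TPM. In all, 7 members averaged over 500 TPM in wild-type S3, 53 were under 100 TPM and 4 under 10 TPM, with a median of 77.9 TPM, against 58.7 TPM for all genes passing the minimum.

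The name slow growth only holds for the 2-fold limit and not for the direction. At S1, 90 of 92 members were also lower in the *flo8Δ* strain, as were 50.5% of all genes passing the minimum. Their log2 ratio had a median of -0.64 and a range from -0.98 to 0.34, where the median of all genes was 0.00. The ratio was at or below -0.5 in 63 members, at or below -0.8 in 28 and at or below -0.9 in 15, and within 0.25 of 0 or higher in 5. In 54 members every *flo8Δ* S1 library lay below every wild-type S1 library in normalized counts, against 23.9% of all genes, and by TPM in 74, against 30.7%. limma called 0 of 91 tested members lower and 0 higher at S1, where 2.54% and 0.641% of all genes were called. At an unadjusted p under 0.05, 71 were lower and 0 higher, as were 21.6% and 21% of all genes. All these counts are descriptions, since the S1 ratio was part of the rule.

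Both ratios differed by a median of 0.68 on the log2 scale, by over 1 in 12 members and by under 0.5 in 22. The members just inside the limit at S3 were PP7435_Chr3-2293 and PP7435_Chr4-0479, at -1.003 and -1.004, and PP7435_Chr1-1325 at -1.02, and those just outside were PP7435_Chr4-0974 at -0.997, PP7435_Chr3-0862 at -0.99 and PP7435_Chr3-1009 at -0.99. At the S1 limit PP7435_Chr3-0663, PP7435_Chr1-1291 and PP7435_Chr1-0038 lay just inside at -0.98, and PP7435_Chr4-1009 at -1.001 and PP7435_Chr4-0635 and PP7435_Chr1-3358 at -1.04 just outside. The limits cut through a continuous cloud of genes. The S1 ratio also depends on the wild-type S1 libraries. Its median was -0.64 with all of them and -0.81 without replicate 3, and 21 members were then at least 2-fold lower at S1. Without replicate 2 it was -0.48 and without replicate 1 -0.67, each with 0 members at least 2-fold lower. Set against replicate 3 alone, the mean of the *flo8Δ* S1 libraries was lower in 67 members, with a median of -0.21.

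**Figure D2:**
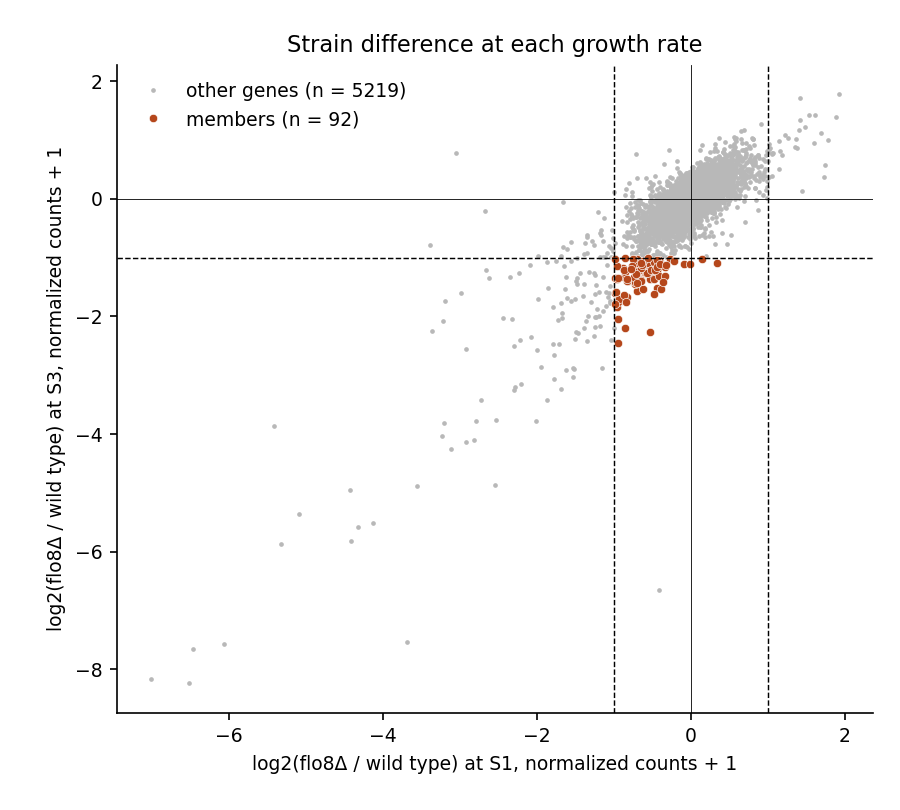
Log2 ratio of *flo8Δ* over wild type at S1 (horizontal) and at S3 (vertical) from mean normalized counts plus 1, for the 92 members (orange) and the 5219 other genes passing the minimum (grey). Dashed lines mark 2-fold. The members fill the strip below -1 at S3 and between -1 and 1 at S1, and 90 of 92 lie left of 0 at S1.

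PP7435_Chr3-0352, named after its values were seen, and PP7435_Chr1-0046 were the exceptions at S1. PP7435_Chr3-0352 had 109, 84.1 and 86.7 TPM in *flo8Δ* S1 and 87.2, 87.2 and 58.5 TPM in wild-type S1, which overlap, whereas at S3 it had 59.0, 54.5 and 53.8 TPM in the *flo8Δ* strain and 98.4, 116 and 130 TPM in the wild-type strain. PP7435_Chr1-0046 had 19.0, 19.0 and 18.3 TPM in *flo8Δ* S1, inside the wild-type S1 range of 11.97 to 25.95 TPM. At S3 it had 8.32, 8.13 and 10.2 TPM in the *flo8Δ* strain and 13.99, 18.2 and 19.96 TPM in the wild-type strain. In both genes the *flo8Δ* libraries were lower at S3 than at S1, while the wild-type means were 115 TPM at S3 and 77.6 TPM at S1 for PP7435_Chr3-0352 and 17.4 TPM at S3 and 17.8 TPM at S1 for PP7435_Chr1-0046.

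Within the wild-type strain the members stood higher at the slow than at the fast rate, and within the *flo8Δ* strain they did not move together. The fitted difference between S3 and S1 had a median of 0.64 over the members in the wild-type strain, with 90 of 92 above 0, and of 0.03 in the *flo8Δ* strain, with 49 of 90 tested above 0. The medians over all genes tested were 0.01 and 0.00, with 49.1% and 49.9% of these genes below 0. The pattern was not particular to the members. The 110 genes at least 2-fold lower in the *flo8Δ* strain at both rates had a median of 0.65 in the wild-type strain. In the *flo8Δ* strain the median of the 107 of these genes that were tested was 0.02. Of the members, 13 were called higher at S3 than at S1 in the wild-type strain and 0 lower, where 1.11% and 0.32% of all genes were called, and 71 were higher and 0 lower at an unadjusted p under 0.05, as were 22.7% and 22.3% of all genes. In the *flo8Δ* strain 0 were called higher and 1 lower, PP7435_Chr1-0046, where 0.32% and 0.226% of all genes were called, and at an unadjusted p under 0.05, 21 members were higher and 21 lower, as were 20.7% and 22.2% of all genes. The rule used all these libraries and selected high wild-type S3 values, so no test of the members is drawn from these counts, and the difference between the strains' responses was not tested.

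Of the 92 members, 66 were at least 0.5 higher on the log2 scale at S3 than at S1 in the wild-type strain. Of these, 60 moved by less than 0.5 in the *flo8Δ* strain, where 90 of the 92 members were fitted. A move that small in the mutant was common: by TPM 91.3% of members had it, and 94.6% of all genes passing the minimum. In the wild-type strain 31.5% of members moved by less than 0.5 by TPM, against 87.7% of all genes. A smaller set had the reverse form: 8 members were at least 0.5 lower at S3 than at S1 in the *flo8Δ* strain, 6 of them with less than 0.5 of difference in the wild-type strain. PP7435_Chr2-0501 is one, with 598, 680 and 698 TPM in *flo8Δ* S3 and 1091, 1034 and 1072 TPM in *flo8Δ* S1, while its wild-type S3 and S1 libraries lay between 1409 and 1720 TPM. PP7435_Chr2-0801 and PP7435_Chr1-0495 had the same form at lower levels, with fitted differences of -0.80 and -0.53 between S3 and S1 in the *flo8Δ* strain. PP7435_Chr3-0663 went the other way in the mutant, with 164, 163 and 170 TPM in *flo8Δ* S3 and 103, 97.8 and 107 TPM in *flo8Δ* S1.

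The wild-type S3 mean was the highest of the 5 samples in 86 of 92 members, as in 23.8% of all genes. Summed over the members, the libraries held 6118 to 6346 TPM in *flo8Δ* S1, 6155 to 6661 TPM in *flo8Δ* S3, 8186 to 11648 TPM in wild-type S1, 15507 to 16428 TPM in wild-type S3 and 7658 to 8256 TPM in wild-type S5. The sums of wild-type S3 stood above all others, and those of both *flo8Δ* samples below all wild-type sums. All samples but wild-type S5 took part in the choice of members. This order is therefore largely built in and is given as a description. In bulk RNA, fewer cells expressing a gene and less RNA per cell cannot be told apart.

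**Figure D3:**
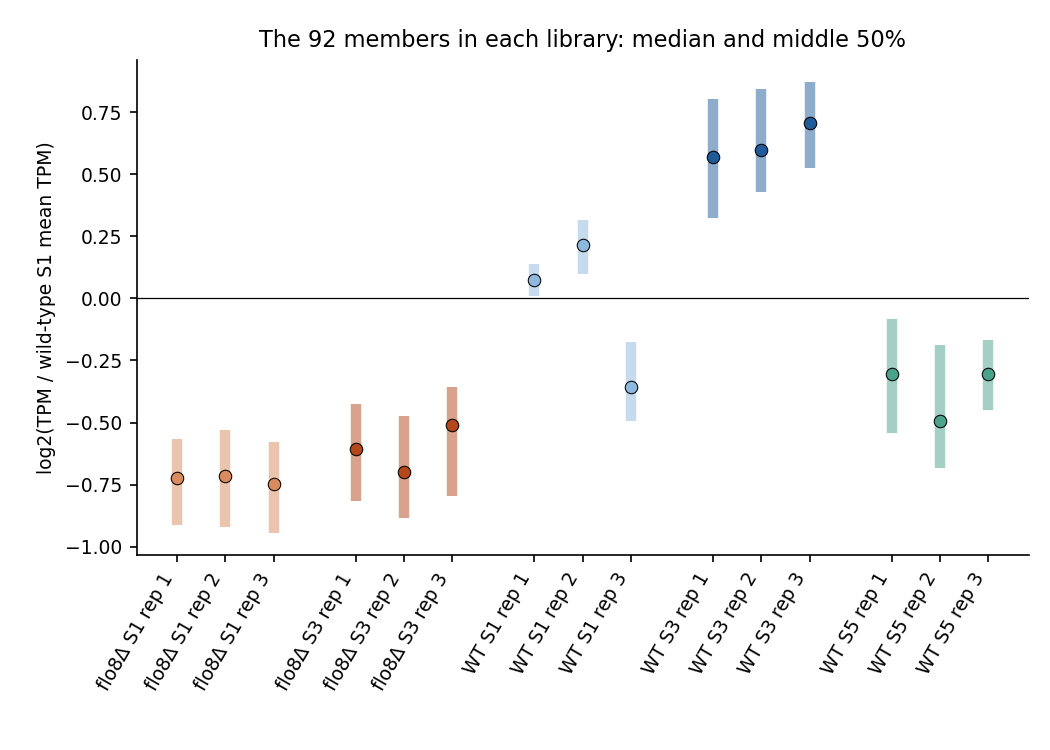
Median (points) and middle 50% (bars) over the 92 members of log2 TPM relative to the wild-type S1 mean, in each of the 15 libraries, with *flo8Δ* at the left. The 3 wild-type S3 libraries lie above 0.5, the 6 *flo8Δ* libraries below -0.4, and wild-type S1 replicate 3 lies near the wild-type S5 libraries.

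After the return to the fast rate most members fell. Their fitted difference between S5 and S3 in the wild-type strain had a median of -0.92, against 0.00 over all 5311 genes tested. It was below 0 in 89 of 92 members, as in 50.3% of all genes. With limma, 40 members were called lower at S5 than at S3 and 0 higher, against 2.33% and 0.0565% of all genes, and 83 were lower and 1 higher at an unadjusted p under 0.05, as were 25.1% and 23.9% of all genes. edgeR (TMM or RLE) and DESeq2 on the recovered reads called 0 higher too. A further 41 were lower at an adjusted p under 0.05 but by less than 2-fold, so 81 members in all passed on the adjusted p, as did 20.8% of all genes. In 83 members all S5 libraries lay under all S3 libraries, against 26.3% of all genes, and in 2 all lay above, against 26.4%. The S5 libraries took no part in the choice of members. The S3 libraries did and were chosen for high values, so part of a lower S5 value is built into the comparison. The same limit holds for the p-values of single members between S5 and S3 given below. The spread of these p-values is that between culture samples which may share a chemostat.

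PP7435_Chr3-0663 fell most, with 205, 175 and 168 TPM at S5 and 552, 545 and 546 TPM at S3 (log2 fold change -1.52, standard error 0.10, limma adjusted p = 2.7e-05). The groups were far apart and the S3 libraries nearly equal. PP7435_Chr4-1598, a transcript of 105 bases, had 5.89, 13.2 and 14.4 TPM at S5 and 33.3, 29.3 and 38.9 TPM at S3 (-1.48, standard error 0.39, limma adjusted p = 0.018), with a spread at S5 as large as its lowest value. PP7435_Chr1-0014 had 168, 149 and 221 TPM at S5 and 476, 494 and 487 TPM at S3 (-1.39, limma adjusted p = 4.0e-05).

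PP7435_Chr1-1291 and PP7435_Chr4-0002 completed the 5 with the lowest fold changes. PP7435_Chr1-1291 had 43.9, 36.7 and 51.4 TPM at S5 and 119, 114 and 123 TPM at S3, and with the stranded estimates described further on taken out its log2 fold change was -0.77, short of 2-fold. PP7435_Chr4-0002 had 319, 304 and 269 TPM at S5 and 823, 803 and 784 TPM at S3 (-1.37, limma adjusted p = 5.0e-05). Among the members with a large strain ratio at S3, PP7435_Chr1-1166 (-1.32), PP7435_Chr1-1550 (-1.29), PP7435_Chr1-0860 (-1.21), PP7435_Chr3-0304 (-1.08) and PP7435_Chr4-1213 (-1.03) were called lower too. The call of PP7435_Chr3-0304 was lost without wild-type S3 replicate 2, where its log2 fold change was -0.90. PP7435_Chr3-0167 (-0.72) and PP7435_Chr1-3369 (-0.54) were not called. Of the most abundant, PP7435_Chr1-0609 (-1.33) and PP7435_Chr3-0802 (-1.10) were called, while PP7435_Chr2-0753 (-0.87), PP7435_Chr3-0324 (-0.86), PP7435_Chr4-0902 (-0.79) and PP7435_Chr2-0501 (-0.65) were not.

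The members were divided by their S3 strain ratio. The 46 with the stronger ratio had a median of -1.05 between S5 and S3, with 26 called lower. The 46 with the weaker ratio had a median of -0.86, with 14 called, where 2.33% of all genes were. Both quantities use the wild-type S3 libraries, so part of this difference is built in, and these sets were not tested against each other. Of the 3 members just inside the limit, PP7435_Chr4-0479 was called lower (-1.02), a call lost without wild-type S3 replicate 3 or wild-type S5 replicate 2, and PP7435_Chr1-1325 (-0.31) and PP7435_Chr3-2293 (-0.32) were not called. The 110 genes at least 2-fold lower in the *flo8Δ* strain at both rates had a median of -1.20 between S5 and S3. Of them 65 were called lower and 0 higher, against 2.33% and 0.0565% of all genes. These values are set beside the members without a test.

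A few members departed from this. PP7435_Chr1-0046 had 25.7, 22.2 and 37.9 TPM at S5 and 13.99, 18.2 and 19.96 TPM at S3, so that no library overlapped (log2 fold change 0.77, standard error 0.17, limma adjusted p = 0.010), a difference under 2-fold. PP7435_Chr3-0529 had 26.3, 30.4 and 21.0 TPM at S5 and 20.1, 19.3 and 20.3 TPM at S3 (0.43, limma adjusted p = 0.10). PP7435_Chr2-0801 had 27.9, 23.3 and 14.3 TPM at S5, around the 20.8, 21.5 and 22.2 TPM at S3. PP7435_Chr1-0495 had 71.3, 87.7 and 65.4 TPM at S5, which overlapped with 95.2, 84.4 and 82.2 TPM at S3 (-0.16, limma adjusted p = 0.42). PP7435_Chr4-0478 did not overlap, with 160, 157 and 115 TPM at S5 and 182, 178 and 173 TPM at S3, and did not pass (-0.25, limma adjusted p = 0.23).

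**Figure D4:**
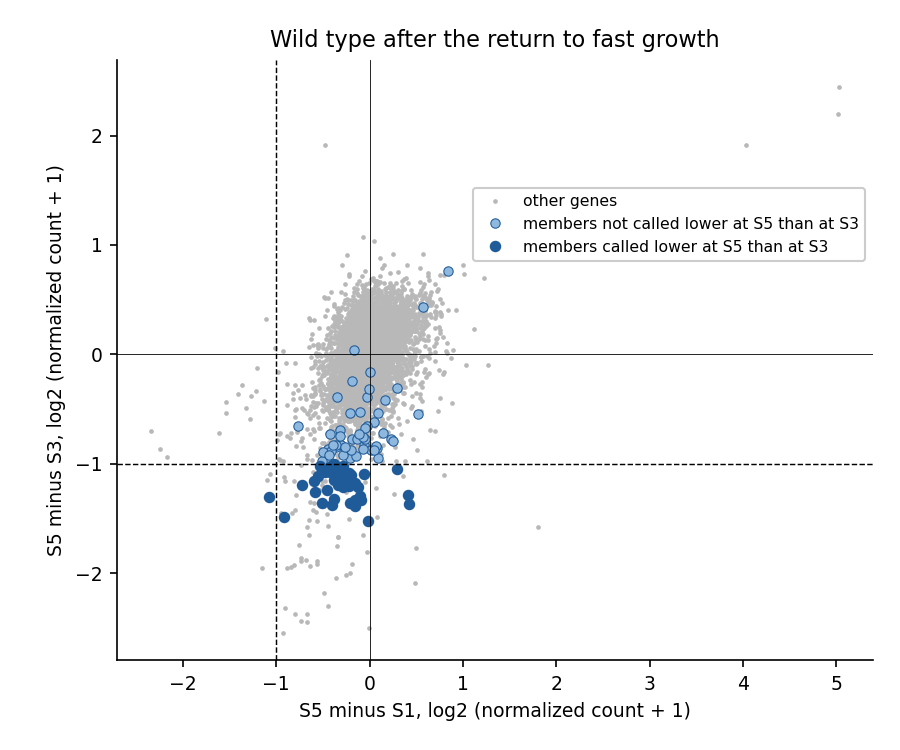
Fitted log2 differences in the wild-type strain, S5 minus S1 (horizontal) and S5 minus S3 (vertical), for the 91 members fitted in both (blue, with dark points for those called lower at S5 than at S3) and for the other genes (grey). Dashed lines mark 2-fold lower. Most members lie between 0 and -1.5 vertically and within 0.5 of 0 horizontally, and PP7435_Chr1-0046 lies at 0.77 and 0.85.

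Compared with S1, most members in the wild-type strain were at S5 close to where they had started, though by TPM less often than genes in general. The S1 libraries took part in the choice of members through the S1 ratio, so part of this closeness may be built in. Over the 91 members tested the fitted difference between S5 and S1 had a median of -0.21, against 0.00 over all genes. It was below 0 in 73, as in 49.8% of all genes tested, and within 0.5 of 0 in 78. By TPM 71.7% of members lay within 0.5 of 0 on the log2 scale, against 92.1% of all genes passing the minimum. The TPM ratio was below 0 in 88.0% of members, against 69.1% of all genes. limma called 1 member lower and 0 higher, against 0.301% and 0.0941% of all genes, and 19 were lower and 3 higher at an unadjusted p under 0.05, as were 13.5% and 12.4% of all genes. In normalized counts the S5 and S1 libraries overlapped in 73 members, every S5 library was lower in 16, where 16% of all genes were, and higher in 3, where 15.6% were. By TPM every S5 library was lower in 32 members, where 22.1% of all genes were, and higher in 2, where 6.61% were. edgeR with either scaling and DESeq2, run on the recovered reads, called 0 members higher as well. The members' median depended on the S1 libraries: it was -0.42 without wild-type S1 replicate 3, with 80 of 90 below 0, and -0.07 without replicate 2, with 50 of 90 below 0. The median standard error of a member was 0.19 here, against 0.09 between S5 and S3.

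The member called lower at S5 than at S1, named after its value was seen, was PP7435_Chr4-0767, with 3.77, 3.83 and 2.40 TPM at S5 and 8.095, 7.72 and 6.87 TPM at S1 (log2 fold change -1.08, limma adjusted p = 0.047). Its S3 libraries held 6.85, 9.49 and 9.50 TPM. The call was lost when wild-type S1 replicate 1 or 2, or any of the 3 S5 libraries, was left out, with log2 fold changes between -1.23 and -0.81. PP7435_Chr2-0501 was lower by less than 2-fold, with 897, 897 and 935 TPM at S5 and 1650, 1687 and 1720 TPM at S1 (-0.77, limma adjusted p = 0.021), and PP7435_Chr4-0479 was too (-0.53, limma adjusted p = 0.031).

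At the other end PP7435_Chr1-0046 (0.85), PP7435_Chr3-0529 (0.57), PP7435_Chr1-3369 (0.52), PP7435_Chr4-0002 (0.42) and PP7435_Chr1-1550 (0.42) had the highest fitted differences between S5 and S1, with limma adjusted p from 0.13 to 0.49. PP7435_Chr4-0002 held 319, 304 and 269 TPM at S5 and 278, 301 and 167 TPM at S1, which overlap. Among the alternatives run, PP7435_Chr1-0046 passed the threshold only without wild-type S1 replicate 2 (1.20, limma adjusted p = 0.038). The 110 genes lower in the *flo8Δ* strain at both rates had a median of -0.60 between S5 and S1. Of them 10 were called lower and 0 higher, against 0.301% and 0.0941% of all genes.

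At S5 most members stood above the level of the *flo8Δ* strain at the same dilution rate. By TPM, 87 of 92 members had a higher mean in wild-type S5 than in *flo8Δ* S1, as did 44.4% of all genes passing the minimum. The median log2 ratio was 0.34 over the members, against -0.03 over all these genes. Every S5 library lay above every *flo8Δ* S1 library in 60 members, where 13.9% of all genes did, and below in 1, where 11.1% did. The 110 genes lower in the *flo8Δ* strain at both rates had a median of 1.09, and 105 of them lay above in every library. PP7435_Chr4-0002 had 319, 304 and 269 TPM in wild-type S5, against 131, 125 and 113 TPM in *flo8Δ* S1, while PP7435_Chr1-1166 had 89.5, 79.5 and 96.8 TPM in wild-type S5, against 62.7, 70.3 and 70.1 TPM in *flo8Δ* S1. No deposited table holds both samples, and the *flo8Δ* S1 libraries took part in the choice of members, so this is given as a description.

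The per-library estimates are a separate count, which the file labels mark as stranded and whose sum equalled 5.06% to 6.11% of the recovered reads of a library. They were below or equal to the reads in every library for all 92 members, but in 6 of the 5311 genes passing the minimum they exceeded the reads in at least 1 library, and whether they count the same reads could not be settled. The strand setting behind the normalized counts is not given in the sources used here. For the members these estimates equalled a median of 13.3% of a gene's reads, against 2.79% over all genes passing the minimum. In 50 members they equalled at least 10%, as in 28.9% of all genes, in 28 at least 25%, as in 16.4%, and in 11 at least 50%, as in 6.88% of all genes. With them subtracted from the reads, 71 members were still at least 2-fold lower in the *flo8Δ* strain at S3, 21 were not, and 12 were at least 2-fold lower at S1 as well. The rule applied to such reads takes 95 genes, of which 58 are members. Without strand, reads from a gene and from an overlapping transcript on the other strand cannot be told apart.

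The estimates and the remaining reads of a gene could differ between the strains in opposite ways. The genes of this paragraph and the next were chosen after their values were seen, as those whose ratio moved most. PP7435_Chr1-1550 had 444, 445 and 441 reads in *flo8Δ* S3 beside estimates of 442, 444 and 441, and 1300, 1997 and 2382 reads in wild-type S3 beside estimates of 71 to 106. The remaining reads, that is the reads less the estimates, were 2, 1 and 0 in the mutant and 1194, 1926 and 2281 in the wild-type strain. PP7435_Chr4-0513 had 7, 13 and 5 remaining reads in *flo8Δ* S3 and 1006, 949 and 913 in wild-type S3, with estimates of 529, 522 and 650 in *flo8Δ* S3 and of 556, 612 and 551 in wild-type S3. Its estimates were alike in both strains and its remaining reads were not. PP7435_Chr2-1002 (4, 6 and 3 remaining reads in *flo8Δ* S3 and 176, 156 and 174 in wild-type S3) and PP7435_Chr4-0002 (105, 86 and 100 in *flo8Δ* S3 and 5109, 4899 and 4548 in wild-type S3) had the same form. At S1, too, the remaining reads of these 4 members gave log2 ratios of *flo8Δ* over wild type between -7.68 and -3.99, values that depend on the 1 added where few reads are left, whereas all their reads gave ratios between -0.97 and -0.52.

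In others the difference lay in the estimates. PP7435_Chr4-0419 had estimates of 349, 386 and 397 in *flo8Δ* S3 and of 1863, 1628 and 1579 in wild-type S3, but 515, 423 and 510 remaining reads in *flo8Δ* S3 and 340, 394 and 367 in wild-type S3. PP7435_Chr2-1192 had estimates of 39, 20 and 26 in *flo8Δ* S3 and of 455, 502 and 531 in wild-type S3, with 418, 347 and 392 remaining reads in *flo8Δ* S3 and 322, 298 and 330 in wild-type S3. For PP7435_Chr3-0881 the estimates were 512, 530 and 587 beside 575, 588 and 663 reads in *flo8Δ* S3 and 1221, 1125 and 1017 beside 1266, 1163 and 1052 reads in wild-type S3. In these 3 members the ratio of the remaining reads was above 0. PP7435_Chr3-0564 had estimates of 161, 147 and 149 in *flo8Δ* S3 and of 1799, 1983 and 1991 in wild-type S3, while its remaining reads, 919, 854 and 882 in *flo8Δ* S3 and 1051, 1103 and 1061 in wild-type S3, gave a log2 ratio of -0.45. By contrast PP7435_Chr3-0663, PP7435_Chr4-0902, PP7435_Chr1-0609 and PP7435_Chr1-1166 had estimates under 1% of their reads, and their S3 ratios of -1.78, -1.41, -1.56 and -1.72 with these taken out were nearly those of all reads.

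**Figure D5:**
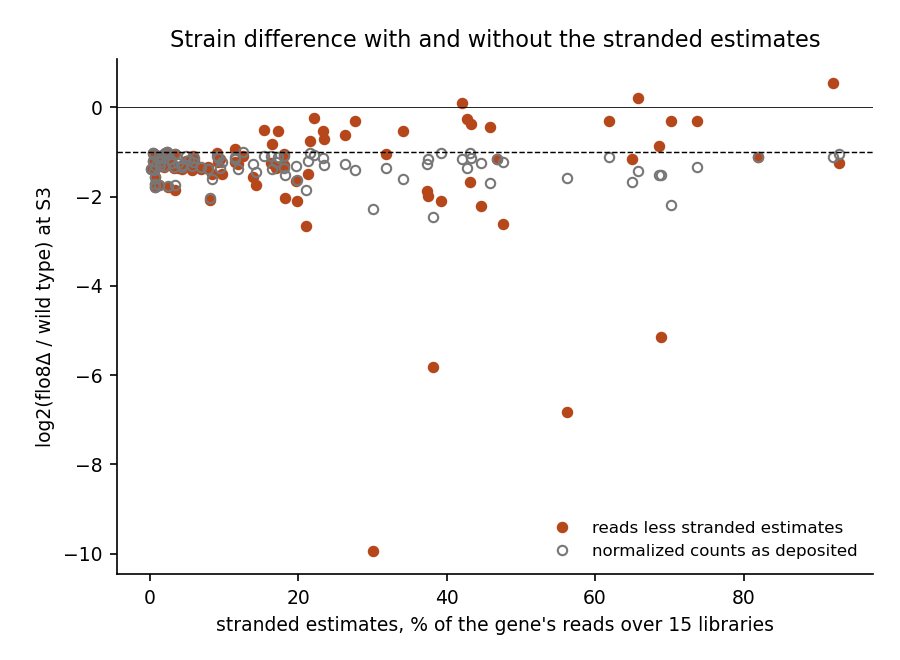
Log2 ratio of *flo8Δ* over wild type at S3 for each of the 92 members, from the normalized counts (open grey) and from the reads less the stranded estimates (orange), against the estimates as a percent of the gene's reads in all 15 libraries. The orange points spread out from about 15% on, with 3 above 0 and 4 below -3. Of the values below -3, that of PP7435_Chr4-0002 rests on 86 to 105 remaining reads in *flo8Δ* S3, and the others on 13 or fewer, so that they depend on the 1 added to each mean.

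The members were spread over all 4 chromosomes, 29 on chromosome 1, 18 on chromosome 2, 25 on chromosome 3 and 20 on chromosome 4, which is 31.5%, 19.6%, 27.2% and 21.7% of them, against 30.5%, 25.5%, 24.2% and 19.7% of all genes passing the minimum. Their median length was 1159.5 bases, against 1176. Genes with consecutive locus tag numbers are called neighbours here, without use of their positions, and 14 members, 15.2%, had a member at the next tag number, against 2.83% of all genes. The 7 pairs were PP7435_Chr1-1324 and PP7435_Chr1-1325, PP7435_Chr1-1550 and PP7435_Chr1-1551, PP7435_Chr3-0303 and PP7435_Chr3-0304, PP7435_Chr3-0351 and PP7435_Chr3-0352, PP7435_Chr4-0419 and PP7435_Chr4-0420, PP7435_Chr4-0478 and PP7435_Chr4-0479, and PP7435_Chr4-0633 and PP7435_Chr4-0634. The partners could differ. PP7435_Chr1-1551 had a ratio of -1.10 at S3 and PP7435_Chr1-1550 one of -2.27, and PP7435_Chr3-0351 was lower in the *flo8Δ* strain at S1 (-0.44) while PP7435_Chr3-0352 was higher there (0.34). PP7435_Chr4-0419 and PP7435_Chr4-0420 had like ratios of -1.44 and -1.63, the first with estimates equal to 65.8% of its reads and the second with 19.9%.

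In all, 12 members, 13.04%, of which 2 are among the 14 above, stood at a tag number next to a gene that was at least 2-fold lower in the *flo8Δ* strain at both growth rates, against 3.22% of all genes. PP7435_Chr1-1166 is next to PP7435_Chr1-1165, which had ratios of -7.01 at S1 and -8.16 at S3, and PP7435_Chr4-0513 is next to PP7435_Chr4-0512, with ratios of -6.52 at S1 and -8.24 at S3. PP7435_Chr3-0564 and PP7435_Chr3-0566 bear the numbers on either side of PP7435_Chr3-0565 (-2.53 at S1 and -3.76 at S3). How far reads of such neighbours reach into a member's count was not tested, since transcript coordinates were not used here. The estimates equalled 0.727% of the reads for PP7435_Chr1-1166, 56.2% for PP7435_Chr4-0513, 45.8% for PP7435_Chr3-0564 and 37.4% for PP7435_Chr3-0566.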

How the data were processed

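The authors sequenced poly-A RNA as single reads, trimmed them, ran kallisto 0.43.1 against the CBS7435 transcripts and ran DESeq2 1.14.1 for each comparison, per the labels and methods. They deposited 6 tables of normalized counts (a signal scaled by DESeq2 within a table, 36 columns of 6 libraries each) and, per library, kallisto estimated counts and TPM, which for wild-type S1 replicate 1 is a fraction summing to 1. The deposited effective lengths and transcript lengths (other values) were used for TPM. The members and lists were chosen with earlier results of these data known, and the symbol lists could not be used.

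Reads were recovered by dividing each column by its step after removing the effective-length factor. 100% of values up to 1000 lay within 0.05 of a whole number and 0 genes differed between tables, as checked by the re-analysis alone. TPM were computed from these reads.

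Log2(normalized count + 1) was analysed per table by limma 3.58.1 in R 4.3.3, with a trended prior variance, over genes with at least 10 in at least 3 libraries, with Benjamini-Hochberg adjustment over all genes. Fold changes are on that scale, which understates low genes. Genes were called at more than 2-fold (log2 of 1) with an adjusted p below 0.05. All 6 tables were fitted, but only comparisons with S5 are given as tests, and counts from the others are descriptions. For members, p-values between S5 and S3 may overstate a fall, since the rule chose the wild-type S3 libraries for high values. The code was tested on simulated data. Samples of the same number deviated together in every pair only for S5 and S1 (correlations 0.13 to 0.19). For S5 and S3 the correlations were 0.42, -0.17 and 0.57 for replicates 1 to 3. The pairing rests on these correlations alone. By TPM the median of all genes shifted by 0.11 between *flo8Δ* S3 and S1 and by -0.12 between wild-type S5 and S1, and by the normalized counts by 0.00 in both, so differences are from the latter. edgeR 4.0.16 (TMM or RLE) and DESeq2 1.42.0 on recovered reads, other filters and pseudocounts, the replicate block, 1 fit of 15 libraries and each library left out were alternatives, and leaving out wild-type S1 libraries from the medians was added after seeing the data. The named genes were the 10 members with the largest S3 ratio, the 10 most abundant in wild-type S3, the 5 lowest and 5 highest from S5 to S3, the 5 highest from S5 to S1, and the 3 genes on each side of each limit. Any other member or neighbour in the text was chosen after its values were seen.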

Additional observations from a re-analysis of the deposited data

Results flagged for a closer look

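In normalized counts, 8 members had every wild-type library higher at S3 than at S1 and every *flo8Δ* library lower at S3 than at S1, as 4 of them had by TPM too, and 2.05% of all genes had the strains fully apart in this or the reverse direction. They are named after their values were seen, apart from PP7435_Chr3-0167, PP7435_Chr4-1213 and PP7435_Chr4-1598, which the rule for named genes holds too. The difference between the strains' responses was not tested, and the rule used all these libraries. The fitted log2 differences between S3 and S1 were -0.85 in the *flo8Δ* strain and 0.61 in the wild-type strain for PP7435_Chr3-0352, and -0.53 in the *flo8Δ* strain and 0.27 in the wild-type strain for PP7435_Chr3-0167. In the *flo8Δ* strain they were -0.33 for PP7435_Chr1-0154, -0.28 for PP7435_Chr4-0634 and -0.26 for PP7435_Chr4-1213, and in the wild-type strain 0.50, 0.55 and 0.69 for these genes in the same order. For PP7435_Chr4-1752 they were -0.24 in the *flo8Δ* strain and 0.60 in the wild-type strain, and for PP7435_Chr3-0923 -0.17 in the *flo8Δ* strain and 0.61 in the wild-type strain. PP7435_Chr4-1598 was at 0.54 in the wild-type strain and was not fitted in the *flo8Δ* strain, where it fell under the filter on low counts.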

How the results depend on the processing

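Members called lower at S5 than at S3 numbered 40, and 39 to 40 under the other pseudocount, filters, scalings and tools, and 35 with the stranded estimates taken out, where 30 are shared. That alternative alone called a member higher, 1 against 0. Leaving out a library gave 36 to 43 lower and 0 higher. Between S5 and S1 the 1 member called lower became 0 with the estimates taken out and 0 to 1 with a library left out, and 0 to 1 were called higher. With the replicate number as a block the counts were 40 and 0 between S5 and S3 and 1 and 0 between S5 and S1, and the block changed no call of a member. Same-numbered S5 and S3 libraries did not all deviate together (correlations -0.17 to 0.57).

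The rule took 92 genes with RLE scaling, 87 with TMM, 67 by TPM, 96 with no minimum and 72 to 110 with a library left out.

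With the estimates taken out the difference between S5 and S3 turned positive for PP7435_Chr1-1325 (0.0514) and PP7435_Chr1-3369 (0.0273). With a library left out it ran from -0.18 to 0.36 for PP7435_Chr2-0801. The difference between S5 and S1 was near 0 in many members. For PP7435_Chr1-0495 it was 9.26e-05 with a pseudocount of 0.1 and 0.00029 in the fit of 15 libraries. For PP7435_Chr3-2293 it was 0.0384 with edgeR and TMM, 0.0381 with RLE, 0.0369 with DESeq2 and 0.0385 with the estimates taken out, against -0.00376 as reported. With a library left out it ran from -0.68 to 0.22 for PP7435_Chr1-0014, from -0.30 to 0.22 for PP7435_Chr1-0495, from -0.49 to 0.13 for PP7435_Chr1-0609, from -0.61 to 0.21 for PP7435_Chr1-0860, from -0.0459 to 0.87 for PP7435_Chr1-3369, from -0.15 to 0.23 for PP7435_Chr2-0753, from -0.38 to 0.16 for PP7435_Chr2-0801, from -0.18 to 0.0181 for PP7435_Chr3-0324, from -0.43 to 0.28 for PP7435_Chr3-0663, from -0.13 to 0.24 for PP7435_Chr3-2293 and from -0.30 to 0.0113 for PP7435_Chr4-0478. The cause was not tested, and fewer samples enter these fits.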
